A study of Homo sapiens with 30 samples.

Results

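The AP-1 transcription factor genes FOS, FOSB, FOSL1, FOSL2, JUN, JUNB, JUND, ATF3 and MAFF were taken by name, 9 of the 30373 genes in the table, and all 9 were found. AP-1 is a family of dimers of basic leucine zipper proteins. A JUN protein (JUN, JUNB or JUND) pairs with a FOS protein (FOS, FOSB, FOSL1 or FOSL2), with another JUN protein or with an ATF protein such as ATF3, and binds DNA elements named TRE and CRE. FOS, FOSB, JUN and ATF3 are classical immediate early or stress genes, whose mRNA appears soon after growth factors, stress or heat and then decays. FOSL1 and FOSL2 (also called FRA1 and FRA2) form longer lived dimers in many carcinoma lines, and MAFF is a small MAF protein that lacks a transactivation domain. JUN and FOS proteins are known targets of the ubiquitin-like modifier SUMO.

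The 30 libraries of messenger RNA fall into 10 groups of n = 3, which the labels call biological triplicates. Colorectal cancer was represented by HCT116 and COLO205, and breast cancer by MDAMB231. The compound was ML-792 (ML00754792), an inhibitor of the SUMO-activating enzyme, at 500 nM, and the control was DMSO at 0.01%. Each line had a group with ML-792 for 16 h and a group with DMSO for 16 h. HCT116 also had 4 groups of 3.5 h: ML-792 with heat shock, DMSO with heat shock, ML-792 without heat shock and DMSO without heat shock. For the heat shock, cells treated for 2 h were moved to 43 °C for 0.5 h and then recovered at 37 °C for 1 h, with the compound or DMSO present throughout. No genotype change is named for any group, and each line stands for 1 tumour.

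Levels are FPKM, fragments normalised for transcript length and library size, so they can be set side by side between genes. Changes are log2 differences of FPKM + 1, tested with limma in fits over all genes that pass a filter on low values, and calls were made below 0.05 after Benjamini-Hochberg adjustment across the genes of each comparison. Estimated depth was 27.4 M to 35.1 M (mega) fragments at 16 h, 37.7 M to 56.3 M with heat shock and 48.7 M to 74.3 M at 3.5 h without it. At these depths the lowest member value, FOSB in MDAMB231, rested on about 22.5 fragments. The heat shocked and the other 3.5 h libraries carry codes of different number series in the labels, so heat shock and library series cannot be told apart. The 16 h libraries carry a further series and have their own DMSO groups, so time and library series cannot be told apart either. All 8 chaperone genes fixed as a check of the heat shock were higher with heat shock in both ML-792 and DMSO, beside 61.7% and 49.5% of all genes called. Of these 8, 7 passed the filter in HCT116 libraries without heat shock. The epithelial list had 7 of 7 markers at 1 FPKM or more in HCT116 and COLO205 and 5 of 7 in MDAMB231. The mesenchymal list had 5 of 7 in MDAMB231, 1 of 7 in COLO205 and 5 of 7 in HCT116, except 3 of 7 in DMSO at 3.5 h without heat shock. Of the intestinal list, COLO205 had 5 of 7, HCT116 1 of 7 and MDAMB231 0 of 7, so HCT116 carries the colorectal label with most of these markers absent. Of markers a culture should lack, endothelial ones were under 1 FPKM in every group, and LYZ, on the leukocyte list, averaged 764.5 FPKM in ML-792 and 795 FPKM in DMSO libraries of COLO205 with PTPRC listed at 0 there. In MDAMB231, 2 of 5 leukocyte markers reached 1 FPKM with ML-792 and 1 with DMSO. Of 2 red cell markers, 1 reached it in COLO205 and in HCT116, except with ML-792 at 3.5 h without heat shock. Their sum was highest in heat shocked HCT116, at 9.04 FPKM with ML-792 and 6.75 FPKM with DMSO. In bulk samples, fewer cells of a type and less RNA per cell cannot be told apart.

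The third COLO205 ML-792 library stood apart in these genes. Among 8641 genes averaging at least 5 FPKM in that group, 34 were under 0.5 times the lower of the other 2 libraries, against 2 and 0 genes for the first and second library. FOS, JUN, ATF3 and MAFF were among the 34, with EGR1, KLF4 and KLF6, other immediate early genes, and DDIT3, TRIB3 and PPP1R15A, known stress response genes. The ML-792 changes of the 9 genes in COLO205 are therefore given with and without it. Since the 16 h groups share 1 estimate of the spread, this library also widened the errors of FOS, FOSB, JUN, ATF3 and MAFF in the other lines, and less those of FOSL1 and FOSL2.

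Promoter sequences of 8 of the 9 genes, in 10 windows, matched by symbol in RefSeq (GRCh38.p14), and FOSL1 had no entry. Windows were the 250 bases before each start site. The 4 printed here are those of FOS and JUN, the genes with the largest changes of log2(FPKM + 1) after heat shock among the FOS and JUN proteins, of FOSL2, which was lower with ML-792 in all 5 settings, and of JUND, the gene of highest GC content. They lie at chr14:75278578-75278827 on the plus strand (FOS), chr1:58784048-58784297 on the minus strand (JUN), chr2:28392608-28392857 on the plus strand (FOSL2) and chr19:18281623-18281872 on the minus strand (JUND). Capitals mark exact matches to the TATA box TATAAA, to the CRE TGACGTCA or its variant with any base at its centre, and to the letters of a heat shock element (GAANNTTC or TTCNNGAA), on either strand.
FOS: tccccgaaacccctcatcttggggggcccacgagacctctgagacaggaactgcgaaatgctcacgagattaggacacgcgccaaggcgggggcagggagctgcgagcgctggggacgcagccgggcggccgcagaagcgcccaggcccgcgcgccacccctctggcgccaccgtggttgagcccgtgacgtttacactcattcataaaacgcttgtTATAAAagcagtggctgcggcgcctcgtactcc
JUN: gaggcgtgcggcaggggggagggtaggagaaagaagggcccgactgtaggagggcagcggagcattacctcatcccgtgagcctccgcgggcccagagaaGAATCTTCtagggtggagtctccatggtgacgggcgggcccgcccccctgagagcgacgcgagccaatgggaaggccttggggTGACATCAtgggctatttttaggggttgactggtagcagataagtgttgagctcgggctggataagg
FOSL2: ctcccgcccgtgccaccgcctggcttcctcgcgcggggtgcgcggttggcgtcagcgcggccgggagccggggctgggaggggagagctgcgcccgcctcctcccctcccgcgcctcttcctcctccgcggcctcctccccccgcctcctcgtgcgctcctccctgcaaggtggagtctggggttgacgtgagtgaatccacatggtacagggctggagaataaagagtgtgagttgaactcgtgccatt
JUND: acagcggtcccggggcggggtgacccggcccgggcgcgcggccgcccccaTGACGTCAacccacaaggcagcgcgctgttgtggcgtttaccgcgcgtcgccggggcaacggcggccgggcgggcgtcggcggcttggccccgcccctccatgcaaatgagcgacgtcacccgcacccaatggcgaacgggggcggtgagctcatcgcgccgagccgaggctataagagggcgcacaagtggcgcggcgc
The letters TATAAA were found in 4 of the 10 windows, of FOS (from -33), FOSB (from -30), JUNB (from -31) and the second of ATF3 (from -230). The ATF3 match lies much farther from the start site than the others. Of all 35116 promoters 10.72% held these letters, and all such shares are per window. JUND (from -200) and MAFF (from -54) held the CRE, 2 of 10 windows, against 1.65% of promoters. The variant with any base at its centre, which includes the CRE, was present in those 2 and in JUN and ATF3. That is 4 of 10 windows, against 6.87% of promoters. JUN alone held the heat shock element letters (11.58% of promoters). Within these 250 bases none of the 8 genes held the TRE TGACTCA or TGAGTCA (4.2%) or a CArG box (1.16%). Bases farther upstream were not searched, so elements there would be missed, in FOS as in the other genes. All but JUNB, 7 of 8 genes, held a GC box GGGCGG, not marked in the printed letters. By window this was 8 of 10, against 42.64% of promoters. GC content of the printed windows was 64.8% (FOS), 62% (JUN), 69.6% (FOSL2) and 74.8% (JUND), with a median of 58% over all promoters. These are matches of letters, and binding was not measured.

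**Figure D1:**
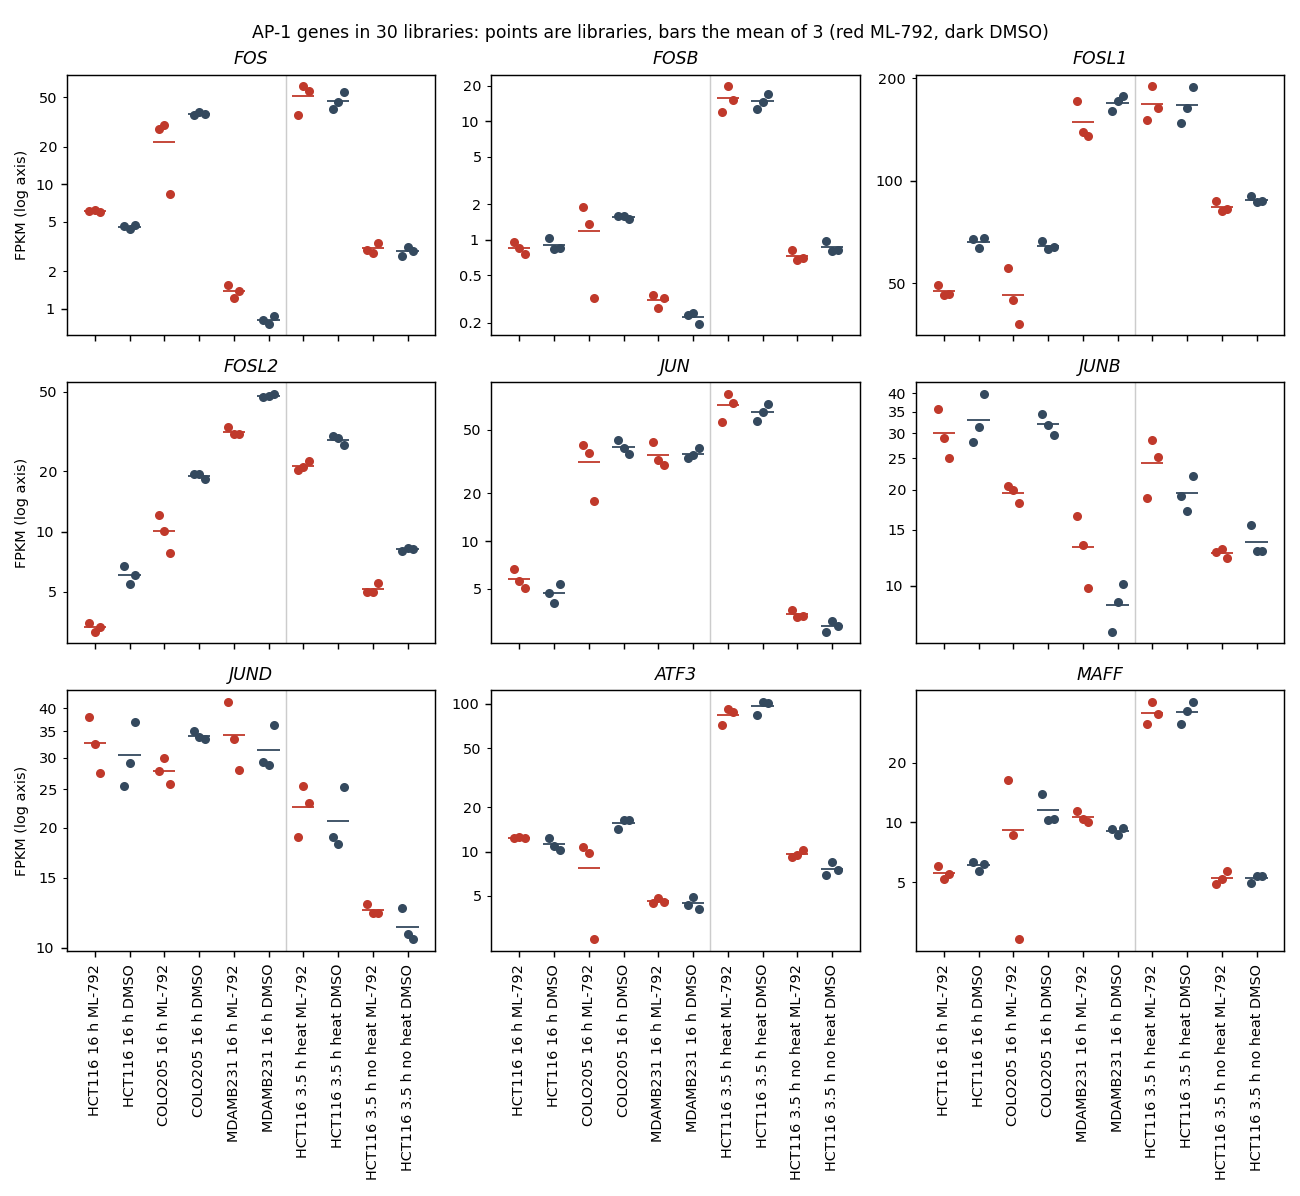
FPKM on log axes of the 9 genes in the 30 libraries, grouped by line, time and heat shock, with ML-792 in red left of DMSO in dark and bars at the mean of 3. Heat shocked HCT116 groups have the highest mean FOS, FOSB, JUN, ATF3 and MAFF levels. For FOS, the first heat shocked ML-792 library (36.1 FPKM) lies within the COLO205 DMSO range (35.7 to 37.6 FPKM). FOSL2 and FOSL1 are highest in MDAMB231 or after heat shock, and FOSL2 lies lower in ML-792 than in DMSO in each of the 5 pairs of groups.

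The shares of the AP-1 genes in their summed level differed between the 3 lines. In DMSO at 16 h, FOSL1 was the most abundant of the 9 in each line, at 55.2% of their summed FPKM in MDAMB231, 25.4% in COLO205 and 40.7% in HCT116. JUNB and JUND followed in HCT116 (20.1% and 18.6%), while JUN (15.4%) and FOS (14.4%) followed in COLO205 and FOSL2 (15.5%) in MDAMB231. JUN itself made up only 2.9% in HCT116. Shares also differed within HCT116: its DMSO libraries of 3.5 h without heat shock had 62.6% FOSL1, 9.7% JUNB and 8.0% JUND. Mean JUNB and JUND were 13.7 and 11.3 FPKM there, against 33.0 and 30.5 FPKM at 16 h. The shares at 16 h are therefore not fixed traits of a line. The 9 genes summed to 307.7 FPKM in MDAMB231, 253.8 FPKM in COLO205 and 163.5 FPKM in HCT116.

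FOS, the partner of JUN in the classical AP-1 dimer, spanned the widest range between lines. It had 35.7, 37.6 and 36.4 FPKM in COLO205 DMSO libraries, against 4.62, 4.35 and 4.68 FPKM in HCT116 DMSO libraries, and 0.812, 0.759 and 0.878 FPKM in MDAMB231 DMSO libraries. No 2 lines overlapped. The log2 difference was 2.76 ± 0.31 (SE) for COLO205 minus HCT116 (limma, adjusted p = 7.78e-07) and -4.37 ± 0.31 for MDAMB231 minus COLO205 (limma, adjusted p = 3.33e-09). JUN was at 43.2, 38.5 and 35.4 FPKM in COLO205 and 33.1, 34.5 and 38.6 FPKM in MDAMB231, against 4.73, 4.07 and 5.35 FPKM in HCT116. COLO205 and MDAMB231 overlapped for JUN, and both lay above HCT116, by 2.81 ± 0.23 and 2.67 ± 0.23 on the log2 scale.

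FOSL2 differed between all 3 lines. MDAMB231 had 47.1, 47.6 and 48.5 FPKM, COLO205 19.4, 19.3 and 18.4 FPKM and HCT116 6.75, 5.50 and 6.07 FPKM, all in DMSO. MDAMB231 minus COLO205 was 1.28 ± 0.10 and COLO205 minus HCT116 1.50 ± 0.10, both called (limma, adjusted p = 7.36e-10 and 9.1e-11). FOSL1 was higher in MDAMB231 than in HCT116 (1.34 ± 0.10) and than in COLO205 (1.38 ± 0.10), and COLO205 and HCT116 overlapped. JUNB, a JUN protein of weaker transactivation, was lower in MDAMB231 than in HCT116 (-1.80 ± 0.17) and COLO205 (-1.77 ± 0.17), with 7.21, 8.91 and 10.1 FPKM. JUND, which many cells transcribe at rest, had overlapping values in the 3 lines, 25.5 to 36.9 FPKM. With the trend of each library on GC content and length removed, JUND was called higher in COLO205 (0.85 ± 0.06) and in MDAMB231 (0.49 ± 0.06) than in HCT116, and JUNB higher in COLO205 than in HCT116 (0.37 ± 0.10, against -0.03 ± 0.17 without that step).

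Counted over the family, COLO205 had 4 members higher than HCT116 (FOS, FOSB, FOSL2 and JUN) and 0 lower, while 84.9% of all tested genes were called. MDAMB231 had 3 higher (FOSL1, FOSL2 and JUN) and 4 lower (FOS, FOSB, JUNB and ATF3) than HCT116, beside 83.6% of all genes. Against COLO205 it had 2 higher (FOSL1 and FOSL2) and 4 lower (FOS, FOSB, JUNB and ATF3), beside 86.4%. So many genes differ between the lines that these shares say nothing particular of AP-1. FOSB, at 0.196 to 1.59 FPKM in DMSO at 16 h, passed the low value filter only through COLO205, so its line differences are a description. Without the third COLO205 ML-792 library in the shared fit, ATF3 (0.45 ± 0.07) and MAFF (0.81 ± 0.16) were also called for COLO205 minus HCT116, and MAFF (0.51 ± 0.16) for MDAMB231 minus HCT116.

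FOSL2 was lower with ML-792 than with DMSO in each of the 5 settings tested. In HCT116 at 16 h, FOSL2 had 3.51, 3.17 and 3.33 FPKM in ML-792 libraries, against 6.75, 5.50 and 6.07 FPKM in DMSO libraries. In COLO205 it had 12.1, 10.1 and 7.83 FPKM in ML-792 libraries, against 19.4, 19.3 and 18.4 FPKM in DMSO libraries. In MDAMB231 it had 33.2, 30.9 and 30.6 FPKM in ML-792 libraries, against 47.1, 47.6 and 48.5 FPKM in DMSO libraries. Every ML-792 library of a line lay below every DMSO library of that line. The log2 changes were -0.71 ± 0.10, -0.88 ± 0.10 and -0.58 ± 0.10 in HCT116, COLO205 and MDAMB231 (limma, adjusted p = 9.54e-05, 2.42e-06 and 0.000391). Without the third COLO205 ML-792 library the COLO205 change was -0.73 ± 0.07 (limma, adjusted p = 1.18e-06).

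FOSL2 was also lower after 3.5 h in HCT116. Without heat shock it had 5.01, 5.02 and 5.54 FPKM in ML-792 libraries, against 8.03, 8.25 and 8.22 FPKM in DMSO libraries, a change of -0.57 ± 0.06 (limma, adjusted p = 0.000251). With heat shock it had 20.2, 21.1 and 22.4 FPKM in ML-792 libraries, against 30.1, 29.3 and 27.1 FPKM in DMSO libraries, a change of -0.42 ± 0.06 (limma, adjusted p = 0.0012). As ratios of mean FPKM these 5 changes were 0.547 (HCT116), 0.527 (COLO205), 0.662 (MDAMB231), 0.635 (3.5 h without heat shock) and 0.738 (3.5 h with heat shock). The ML-792 effect on FOSL2 was not called different between lines (COLO205 minus HCT116 -0.17 ± 0.14, MDAMB231 minus HCT116 0.13 ± 0.14, MDAMB231 minus COLO205 0.30 ± 0.14), between times (16 h minus 3.5 h -0.14 ± 0.09) or between heat shock and none (0.15 ± 0.08). The smallest of these 5 adjusted p values in limma was 0.124, for MDAMB231 minus COLO205, whose 95% interval ran from 0.0076 to 0.59 before adjustment, and which was 0.15 ± 0.10 without the third COLO205 ML-792 library (limma, adjusted p = 0.303) and 0.43, called, without the first (limma, adjusted p = 0.00789). COLO205 minus HCT116 was -0.02 ± 0.10 without the third. FOSL2 kept its call and direction in each of the alternative settings run for the 5 comparisons, with the weakest at adjusted p = 0.0417.

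**Figure D2:**
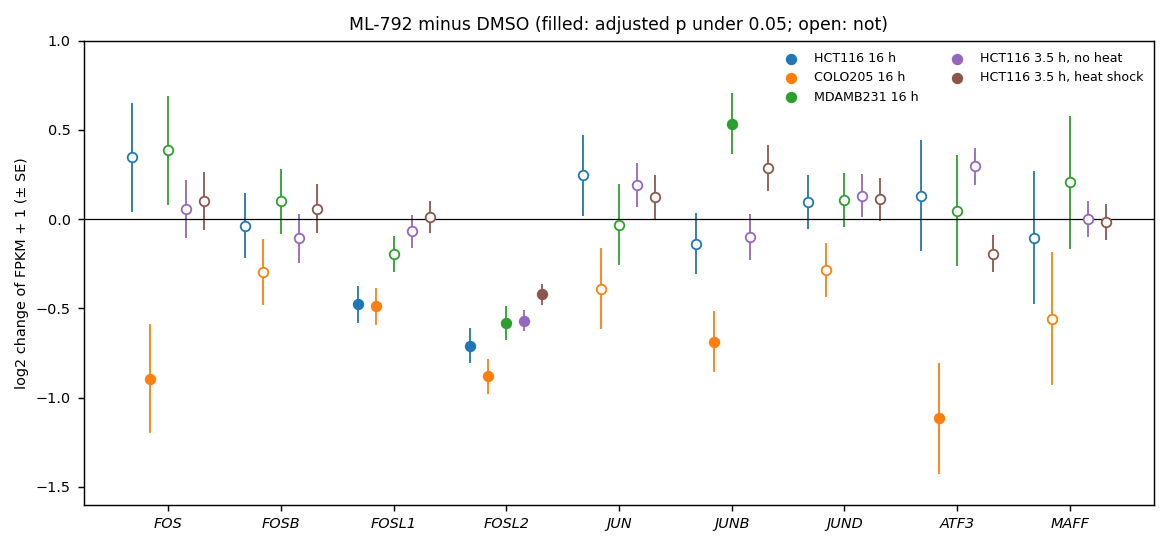
Log2 change of FPKM + 1 with its SE for each gene, ML-792 minus DMSO, in the 5 settings, filled where the limma adjusted p was under 0.05. FOSL2 is filled and below 0 in all 5, between -0.88 and -0.42, and the other members have open points, apart from 4 filled ones below 0 in COLO205, FOSL1 in HCT116 at 16 h and JUNB in MDAMB231.

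FOSL1, the most abundant member, was lower with ML-792 at 16 h in both colorectal lines. HCT116 had 49.5, 46.4 and 46.5 FPKM in ML-792 libraries, against 67.5, 63.4 and 68.2 FPKM in DMSO libraries, and COLO205 had 55.5, 44.7 and 38.1 FPKM in ML-792 libraries, against 66.4, 62.9 and 63.8 FPKM in DMSO libraries. The groups did not overlap, with changes of -0.48 ± 0.10 (limma, adjusted p = 0.00501) in HCT116 and -0.49 ± 0.10 (limma, adjusted p = 0.00142) in COLO205, or -0.36 ± 0.09 without the third COLO205 library (limma, adjusted p = 0.00659). In MDAMB231 the values overlapped, 172, 140 and 135 FPKM in ML-792 libraries, against 160, 172 and 178 FPKM in DMSO libraries, with a change of -0.19 ± 0.10 that was not called (limma, adjusted p = 0.234). The difference in effect between MDAMB231 and HCT116, 0.28 ± 0.15, was not called either (limma, adjusted p = 0.253). At 3.5 h without heat shock FOSL1 had 87.3, 81.9 and 82.9 FPKM in ML-792 libraries, against 90.2, 86.9 and 87.1 FPKM in DMSO libraries, a change of -0.07 ± 0.09. Between the times, which cannot be told apart from the library series, its ML-792 effect differed, by -0.41 ± 0.06 for 16 h minus 3.5 h (limma, adjusted p = 0.0015). It was 1 of the 8 members tested there, beside 2.4% of all genes called, and the call was lost in a fit over all 30 libraries (adjusted p = 0.237 in limma). FOSB stayed under the filter in that comparison.

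FOS values were higher with ML-792 in HCT116 and MDAMB231, and lower in COLO205. Its ML-792 libraries had 6.04, 6.20 and 5.94 FPKM, against 4.62, 4.35 and 4.68 FPKM in DMSO libraries in HCT116 at 16 h, and 1.54, 1.22 and 1.37 FPKM, against 0.812, 0.759 and 0.878 FPKM in MDAMB231. The groups did not overlap in either line, but the changes of 0.35 ± 0.31 and 0.39 ± 0.31 were not called (limma, adjusted p = 0.504 and 0.471). Without the third COLO205 ML-792 library in the shared fit, an alternative added after its values were seen, the same changes had an SE of 0.05 and were called (limma, adjusted p = 0.0002 in HCT116 and 4.11e-05 in MDAMB231). In COLO205 FOS had 27.8, 29.6 and 8.36 FPKM in ML-792 libraries, against 35.7, 37.6 and 36.4 FPKM in DMSO libraries, a fall of 0.89 ± 0.31 on the log2 scale that was called (limma, adjusted p = 0.034). Without the third library the change was -0.34 ± 0.06, also called (limma, adjusted p = 0.00027), and in a fit of the COLO205 groups alone with all libraries it was not (limma, adjusted p = 0.262). Leaving out any 1 of the 3 COLO205 DMSO libraries also ended the call (limma, adjusted p = 0.0688, 0.0834 and 0.0764). For MDAMB231 minus COLO205 the effect on FOS differed by 1.28 ± 0.43 (limma, adjusted p = 0.0429), and by 0.73 ± 0.08 without the third library (limma, adjusted p = 4.64e-06), while leaving out any 1 COLO205 DMSO or MDAMB231 library ended the call (limma, adjusted p from 0.0605 to 0.0894). COLO205 minus HCT116 was -1.24 ± 0.43 with all libraries (limma, adjusted p = 0.061, not called) and -0.69 ± 0.08 without the third (limma, adjusted p = 1.03e-05, called).

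ATF3, a stress-induced factor that often represses its targets, had 10.7, 9.78 and 2.54 FPKM in COLO205 ML-792 libraries, against 14.3, 16.3 and 16.3 FPKM in DMSO libraries. The groups did not overlap, and the change of -1.12 ± 0.31 was called (limma, adjusted p = 0.0118), as was -0.56 ± 0.08 without the third library (limma, adjusted p = 3.47e-05). A fit of the COLO205 groups alone with all libraries did not call it (limma, adjusted p = 0.182). In HCT116 at 16 h ATF3 was at 12.3, 12.5 and 12.3 FPKM in ML-792 libraries, against 12.3, 11.0 and 10.3 FPKM in DMSO libraries, and the ranges overlapped. MAFF in COLO205 had 16.3, 8.67 and 2.57 FPKM in ML-792 libraries, against 13.9, 10.3 and 10.4 FPKM in DMSO libraries, and FOSB had 1.89, 1.37 and 0.325 FPKM in ML-792 libraries, against 1.59, 1.59 and 1.50 FPKM in DMSO libraries. Neither was called, and without the third library their changes were 0.06 ± 0.17 (MAFF) and 0.03 ± 0.07 (FOSB), whereas without the first they were called, at -1.08 and -0.53 (limma, adjusted p = 0.0083 and 0.0125). JUN was likewise spread in COLO205, at 39.9, 35.8 and 17.7 FPKM in ML-792 libraries, against 43.2, 38.5 and 35.4 FPKM in DMSO libraries, with a change of -0.39 ± 0.23 that was not called and -0.04 ± 0.13 without the third library.

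**Figure D3:**
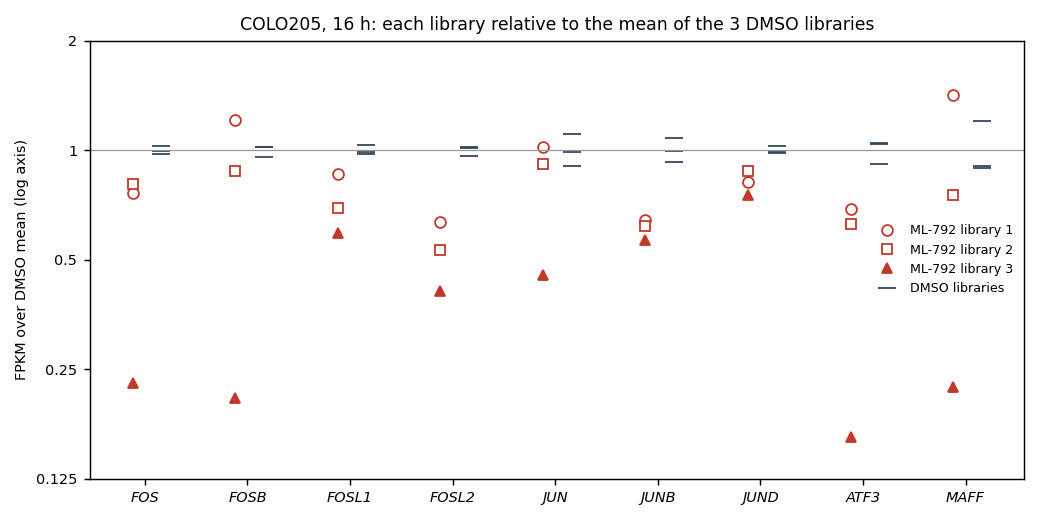
FPKM of each COLO205 library of 16 h divided by the mean of the 3 DMSO libraries, on a log axis, with the 3 ML-792 libraries as red symbols left of the DMSO libraries as dark bars. The third ML-792 library (filled triangles) lies far below the other 2 for FOS, FOSB, JUN, ATF3 and MAFF, while FOSL2 and JUNB are below the DMSO libraries in each ML-792 library.

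The ML-792 effect on JUNB differed between MDAMB231 and COLO205. In COLO205 it had 20.5, 19.9 and 18.1 FPKM in ML-792 libraries, against 34.5, 31.9 and 29.7 FPKM in DMSO libraries, without overlap, and fell by 0.69 ± 0.17 on the log2 scale (limma, adjusted p = 0.00569), with -0.64 ± 0.19 without the third library. In MDAMB231 it had 16.5, 13.5 and 9.88 FPKM in ML-792 libraries, against 7.21, 8.91 and 10.1 FPKM in DMSO libraries. These ranges overlapped, the change of 0.54 ± 0.17 was close to the threshold (limma, adjusted p = 0.0445), and the call was lost without the first or second ML-792 library (limma, adjusted p = 0.17 and 0.121) or the first or second DMSO library (limma, adjusted p = 0.175 and 0.0927). In HCT116 at 16 h it had 35.8, 28.9 and 25.1 FPKM in ML-792 libraries, against 28.2, 31.3 and 39.6 FPKM in DMSO libraries, with a change of -0.14 ± 0.17. The difference of the effect in MDAMB231 minus COLO205 was 1.22 ± 0.24 (limma, adjusted p = 0.0019), and 1.17 ± 0.26 without the third COLO205 ML-792 library. MDAMB231 minus HCT116 was 0.67 ± 0.24 and not called (limma, adjusted p = 0.0953), but was called without the first HCT116 ML-792 library (0.80, limma adjusted p = 0.0431) or the third MDAMB231 ML-792 library (0.85, limma adjusted p = 0.021).

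JUND had overlapping values with ML-792 and DMSO in HCT116 and MDAMB231, but not in COLO205. COLO205 had 27.8, 29.9 and 25.8 FPKM in ML-792 libraries, against 35.0, 33.8 and 33.5 FPKM in DMSO libraries. The change of -0.29 ± 0.15 was not called (limma, adjusted p = 0.155), nor was -0.23 ± 0.17 without the third library, but it was when the COLO205 groups were fitted alone (limma, adjusted p = 0.0031). In HCT116 at 16 h it had 38.0, 32.5 and 27.4 FPKM in ML-792 libraries, against 25.5, 29.2 and 36.9 FPKM in DMSO libraries. Its transcript is 69.7% GC, at the 99.9 percentile of genes, and that of JUNB is 64.9% GC, at the 97.0 percentile. Replicates differed in how gene levels followed GC content: the Spearman rho over genes was 0.41, -0.55 and -0.72 in HCT116 ML-792 libraries and -0.19, 0.37 and 0.71 in HCT116 DMSO libraries, in the same library order. In both of these groups JUND was highest in the library with the highest rho and lowest in the library with the lowest rho, while in COLO205 the order of JUND ran the other way. With the trend on GC and length removed, the JUND change in HCT116 at 16 h was 0.29 ± 0.06 and called (limma, adjusted p = 0.0022), against 0.10 ± 0.15 without that step (limma, adjusted p = 0.739). JUNB in MDAMB231 was then 0.54 ± 0.10 (limma, adjusted p = 0.000791) and in COLO205 -0.53 ± 0.10 (limma, adjusted p = 0.000423), while JUND in COLO205 was -0.11 ± 0.06 and FOS in COLO205 -0.81 ± 0.31, no longer called (limma, adjusted p = 0.0527). In the plot against the GC trend FOSL2 was lower in ML-792 than in DMSO libraries of each line. In COLO205 rho was -0.26, -0.35 and -0.19 in ML-792 libraries and 0.14, 0.32 and 0.37 in DMSO libraries. Since these did not overlap, the plot cannot tell rho and ML-792 apart in COLO205.

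**Figure D4:**
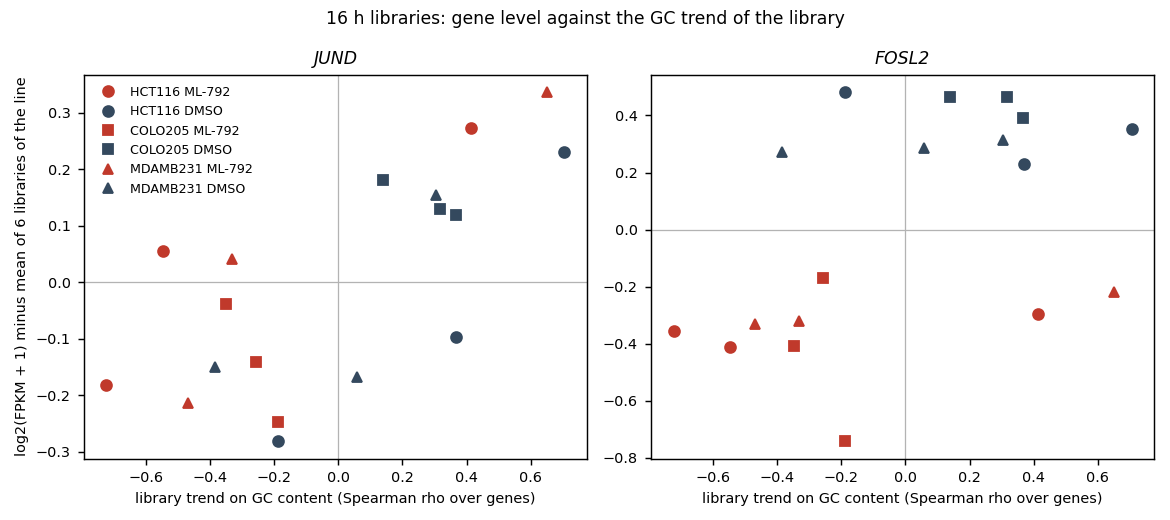
Level of JUND and of FOSL2 in each 16 h library, as log2(FPKM + 1) minus the mean of the 6 libraries of its line, against the Spearman rho of gene levels on GC content in that library, with ML-792 in red and DMSO in dark. JUND is highest in the library of highest rho in each HCT116 and MDAMB231 group but not in the COLO205 groups, and FOSL2 separates ML-792 (below 0) from DMSO (above 0) in each line. In COLO205 rho also separates them, below 0 in ML-792 and above 0 in DMSO libraries.

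In all, ML-792 at 16 h gave calls for 2 of 9 members in HCT116 (FOSL1 and FOSL2, both lower), beside 14.7% of all tested genes. In COLO205 it gave 5 of 9, all lower (FOS, FOSL1, FOSL2, JUNB and ATF3), beside 37% of all genes, and the same number without the third library. In MDAMB231 FOSL2 was lower and JUNB higher, 2 of 9, beside 16.9%. At 3.5 h without heat shock FOSL2 was the 1 member called, beside 1.21% of all genes, and with heat shock again FOSL2 was the 1 member called, beside 33.5%. ATF3 at 3.5 h without heat shock had 9.12, 9.52 and 10.2 FPKM in ML-792 libraries, against 6.99, 8.53 and 7.48 FPKM in DMSO libraries, without overlap, and its change of 0.30 ± 0.10 was called only when these 2 groups were fitted alone (limma, adjusted p = 0.0323). In heat shocked cells JUNB was called without the first ML-792 library (0.45, limma adjusted p = 0.0117) or the third DMSO library (0.38, limma adjusted p = 0.0444), and JUN without the first ML-792 library (0.29, limma adjusted p = 0.0409). Differences of the ML-792 effect in limma were called for 0 of 9 members between COLO205 and HCT116 (19.4% of all genes), with FOS, JUNB and ATF3, 3 members, at an unadjusted p under 0.05. They were called for 0 of 9 between MDAMB231 and HCT116 (10.8% of all genes), with JUNB, 1 member, at an unadjusted p under 0.05, and for FOS and JUNB, 2 of 9, between MDAMB231 and COLO205 (26%). Without the third COLO205 library the count for COLO205 minus HCT116 was 2 (FOS and ATF3) and for MDAMB231 minus COLO205 3 (FOS, JUNB and ATF3).

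Heat shock raised the whole family in HCT116. JUN had 56.1, 83.6 and 74.2 FPKM in heat shocked ML-792 libraries, against 3.70, 3.35 and 3.39 FPKM in those without heat shock, and 57.0, 64.4 and 72.7 FPKM in heat shocked DMSO libraries, against 2.70, 3.16 and 2.90 FPKM in those without. On the log2(FPKM + 1) scale this was the largest change of the 9, 3.99 ± 0.12 with ML-792 and 4.06 ± 0.12 with DMSO (limma, adjusted p = 7.49e-11 and 5.01e-11), or ratios of mean FPKM of 20.5 and 22.2, where FOSB had 21.3 and 17.0. FOS had 36.1, 60.8 and 56.1 FPKM in heat shocked ML-792 libraries, against 2.98, 2.78 and 3.38 FPKM without heat shock, and 39.7, 45.5 and 55.1 FPKM in heat shocked DMSO libraries, against 2.63, 3.11 and 2.92 FPKM without. Its changes were 3.65 ± 0.16 with ML-792 and 3.61 ± 0.16 with DMSO (limma, adjusted p = 2.61e-09 and 2.68e-09). Every heat shocked library of both genes lay above every library without heat shock.

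ATF3 became the second most abundant member, after FOSL1. Heat shocked ML-792 libraries had 71.4, 92.7 and 87.7 FPKM, against 9.12, 9.52 and 10.2 FPKM without heat shock, and heat shocked DMSO libraries had 83.8, 102 and 102 FPKM, against 6.99, 8.53 and 7.48 FPKM without. The changes were 2.99 ± 0.10 with ML-792 and 3.48 ± 0.10 with DMSO (limma, adjusted p = 2e-10 and 4.97e-11). MAFF was raised by 2.55 ± 0.10 with ML-792 and 2.57 ± 0.10 with DMSO, to 31.2, 40.4 and 35.3 FPKM and 31.3, 36.4 and 40.4 FPKM. FOSB had 12.1, 19.7 and 15.0 FPKM in heat shocked ML-792 libraries, against 0.817, 0.682 and 0.696 FPKM without heat shock. In DMSO it had 12.8, 14.4 and 17.0 FPKM with heat shock, against 0.982, 0.798 and 0.819 FPKM without. Since FOSB passed the low value filter in this fit only through heat shocked libraries, its changes of 3.24 ± 0.14 and 3.07 ± 0.14 are a description.

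The other members changed less. FOSL2 was raised by 1.85 ± 0.06 with ML-792 and 1.70 ± 0.06 with DMSO, and FOSL1 by 0.99 ± 0.09 and 0.91 ± 0.09, to 151, 190 and 164 FPKM with ML-792 and 148, 164 and 188 FPKM with DMSO. JUND was raised by 0.80 ± 0.12 with ML-792 and 0.82 ± 0.12 with DMSO, and JUNB by 0.86 ± 0.13 and 0.47 ± 0.13 (limma, adjusted p = 0.000118 and 0.00889). JUNB in DMSO had 19.1, 17.2 and 22.1 FPKM with heat shock, against 15.5, 12.9 and 12.8 FPKM without. Scaling all libraries to equal total FPKM moved the median of all genes by -0.26 with ML-792 and by -0.21 with DMSO, and left JUNB in DMSO at 0.25, no longer called (limma, adjusted p = 0.091). Over all genes the calls were then 1791 higher and 5443 lower with ML-792, against 4796 and 2721 in the values as deposited, and 1523 higher and 5157 lower with DMSO, against 3526 and 2507. All 9 members were called higher with heat shock in ML-792, beside 61.7% of all genes, and all 9 in DMSO, beside 49.5%, with the reserve on FOSB and JUNB given above.

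**Figure D5:**
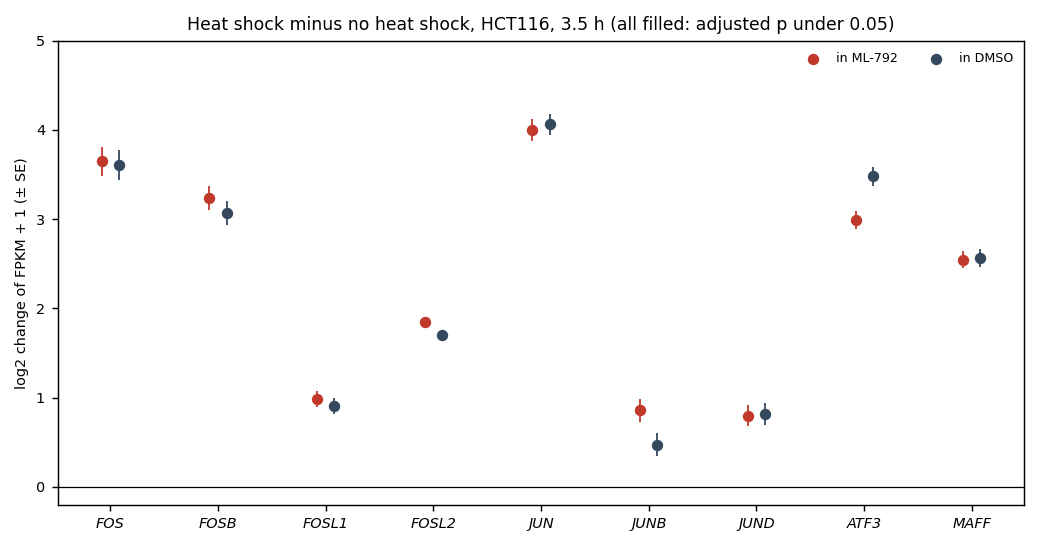
Log2 change of FPKM + 1 with its SE for each gene, heat shock minus none in HCT116 at 3.5 h, in ML-792 (red) left of DMSO (dark). All points lie above 0, from 0.47 (JUNB in DMSO) to 4.06 (JUN in DMSO), and the 2 treatments lie close together, with the widest gap at ATF3.

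ML-792 was not called to alter the heat shock response of any member, 0 of 9, beside 6.41% of all genes. At an unadjusted p under 0.05 there was 1, ATF3, with a difference of -0.49 ± 0.15 (limma, adjusted p = 0.0602). Under median of ratios scaling and under equal totals it was called, at -0.55 in both (limma, adjusted p = 0.0355 and 0.0475), as it was without the first heat shocked DMSO library (limma, adjusted p = 0.0326) or the third heat shocked ML-792 library (limma, adjusted p = 0.0403). The difference was 0.39 ± 0.18 for JUNB (0.55 and called without the first heat shocked ML-792 library, limma adjusted p = 0.042), 0.17 ± 0.19 for FOSB, 0.08 ± 0.13 for FOSL1, -0.07 ± 0.17 for JUN, -0.02 ± 0.17 for JUND, -0.02 ± 0.14 for MAFF and 0.04 ± 0.23 for FOS, with a 95% interval for FOS of -0.46 to 0.54.

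After heat shock FOSL1 made up less of the family's summed level, and JUN, FOS and ATF3 more. In ML-792 libraries FOSL1 was 34.2% of the summed FPKM with heat shock, against 61.6% without, and in DMSO libraries 33.7% against 62.6%. ATF3 was 17% with heat shock, against 7.1% without, in ML-792, and 19.4% against 5.5% in DMSO. The 9 genes summed to 493.5 FPKM with heat shock and 136.5 FPKM without in ML-792, and to 493.9 FPKM and 140.8 FPKM in DMSO.

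Other genes of the pathway were taken from lists. Of 29 other immediate early genes 28 were tested after heat shock: 20 were higher and 4 lower with ML-792 (median log2 change 0.94, against 0.10 over all genes), and 21 were higher and 2 lower with DMSO (1.40 against 0.05). Of all tested genes, 61.7% with ML-792 and 49.5% with DMSO were called. Only 25 of the list passed the low value filter in HCT116 libraries without heat shock. Some therefore entered through heat shocked libraries, and the rises of such genes are a description. The angiogenic factor gene CYR61 was raised by 3.10 ± 0.10 with ML-792 and 3.43 ± 0.10 with DMSO, and EGR3, a zinc finger factor, by 3.09 ± 0.07 and 3.40 ± 0.07. Comparing ML-792 with DMSO in heat shocked cells, 13 of the 28 were lower and 0 higher (median -0.20, against 0.06 over all genes), where FOSL2 was the 1 AP-1 member called. There 33.5% of all tested genes were called, 2241 higher and 1842 lower. For the difference of the heat shock response with ML-792 and DMSO, 9 of 28 were lower and 0 higher, beside 6.41% of all genes called. Among the 9 were DUSP5, a phosphatase of ERK kinases, at -1.19, TRIB1, a pseudokinase, at -1.18 and MYC at -1.01. At 16 h, ML-792 gave 1 higher and 4 lower of 25 tested in HCT116, 2 higher and 9 lower in COLO205 and 4 higher and 1 lower in MDAMB231, beside 14.7%, 37% and 16.9% of all genes called in the 3 lines. ZFP36, whose protein promotes decay of AU-rich mRNAs, was higher with ML-792 in HCT116 at 16 h (0.84 ± 0.17) and at 3.5 h without heat shock (0.56 ± 0.09).

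Reported AP-1 targets were mixed. Of 32 such genes 25 were tested at 16 h: with ML-792, 2 were higher and 6 lower in HCT116 (median -0.05), 3 higher and 9 lower in COLO205 (median -0.14) and 3 higher and 4 lower in MDAMB231 (median 0.02), where the median of all genes was near 0 and 14.7%, 37% and 16.9% of all genes were called. PLAU, the urokinase gene, was lower in HCT116 at 16 h, with 11.2 ± 0.56 FPKM in ML-792 and 25.8 ± 0.52 FPKM in DMSO libraries (SD, n = 3 each). It was also lower in MDAMB231 (-0.53 ± 0.05). IL11, a cytokine gene, was higher in MDAMB231, at 29.2 ± 3.8 FPKM in ML-792 and 4.28 ± 0.11 FPKM in DMSO libraries (SD, n = 3 each), a change of 2.51 ± 0.07. HMOX1, the heme oxygenase gene, was lower with ML-792 in HCT116 (-0.88 ± 0.06) and COLO205 (-1.65 ± 0.06). After heat shock 11 targets were higher and 4 lower of 20 tested with ML-792, and 12 higher and 4 lower with DMSO. Of all tested genes, 61.7% with ML-792 and 49.5% with DMSO were called. Only 18 targets passed the low value filter in HCT116 libraries without heat shock, so rises of those that entered through heat shocked libraries are a description.

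Of 19 other bZIP and small MAF relatives, 12 were tested at 16 h, and with ML-792 1 was lower in HCT116, 3 were higher and 3 lower in COLO205, and 2 were lower in MDAMB231. Of all tested genes, 14.7%, 37% and 16.9% were called in these lines. JDP2, an AP-1 repressor, was lower in HCT116 (-0.29) and COLO205 (-0.30) and BATF3 in MDAMB231 (-0.55), while NFE2 (0.79) and BATF (0.77) were higher in COLO205. At 3.5 h without heat shock ML-792 gave 0 calls in limma among 11, beside 1.21% of all genes, with 1 at an unadjusted p under 0.05. Of 28 upstream kinases and factors 27 were tested at 16 h: 3 were higher and 1 lower in HCT116, 3 higher and 4 lower in COLO205, and 3 higher and 4 lower in MDAMB231. Beside them stand the same 14.7%, 37% and 16.9% of all genes. ELK3, an ETS factor that acts with SRF, was lower with ML-792 in HCT116 (-0.29) and MDAMB231 (-0.38). After heat shock, MAP2K3, a kinase that activates p38, was raised by 0.97 with ML-792 and 1.08 with DMSO. Of 26 upstream genes tested there, 6 were higher and 9 lower with ML-792, and 3 higher and 8 lower with DMSO. Of all tested genes, 61.7% with ML-792 and 49.5% with DMSO were called, so upstream genes were called no more often than genes at large.

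Genes with levels most like those of each member were taken by Pearson's r over the 10 group means. Over these groups, which share lines and libraries, FOSB was closest to EGR2 (0.99), CASS4 (0.99) and CRYAB (0.99), and ATF3 to SLC2A9 (0.99), FOSB (0.98) and EGR2 (0.97). MAFF was closest to DUSP1 (0.98), ATRAID (0.98) and HSPA1L (0.97), and JUN to KCTD11 (0.98), RIT1 (0.97) and IRAK2 (0.96). Among the genes closest to FOSL2 were MGC72080 (0.94) and PJA1 (0.94). For FOS these were BUD31, ARID3B and TMEM258 (0.98, 0.97 and 0.97), for FOSL1 LMAN2L, MANBAL and IGHMBP2 (0.97, 0.96 and 0.96), for JUNB HSD17B8, KDM4A and TRPM4 (0.95 each) and for JUND BBS1, YJEFN3 and ZSWIM4 (0.97, 0.97 and 0.96).

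The order of levels over the 10 groups differed by member. FOS was highest in heat shocked HCT116, where ML-792 (51.0 FPKM on average) and DMSO (46.8 FPKM) overlapped, then in COLO205 DMSO (36.6 FPKM) and COLO205 ML-792 libraries (21.9 FPKM), and lowest in MDAMB231 ML-792 (1.38 FPKM) and DMSO libraries (0.816 FPKM). FOSL2 ran from MDAMB231 ML-792 and DMSO libraries (31.6 and 47.7 FPKM) at the top to HCT116 ML-792 libraries of 16 h (3.34 FPKM) at the bottom. Its neighbours in this order overlapped in only 2 places, COLO205 ML-792 with HCT116 DMSO of 3.5 h and HCT116 ML-792 of 3.5 h with HCT116 DMSO of 16 h, both without heat shock. JUND had 6 groups of 16 h at 27.8 to 34.2 FPKM, each overlapping the next, above the 4 groups of 3.5 h.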

How the data were processed

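Polyadenylated RNA of 30 libraries was sequenced from stranded TruSeq libraries as paired 50-base reads with 30 M reads planned, per the labels' protocols. The authors deposited 1 table of FPKM for 30373 genes, a unit read from the values since the labels do not state it. The submitters' processing notes name DESeq2 1.10.1 with no role, and the sources used here give no aligner, build or annotation. All 30 columns were matched to samples by their label codes.

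Group means were compared by limma 3.58.1 (R 4.3.3), with lmFit, contrasts and a trended, robust eBayes on log2(FPKM + 1), a scale that understates changes of low genes. A gene was kept if 3 or more libraries of a fit reached 1 FPKM: 14251 in the 18 libraries of 16 h, 12191 in the 12 of 3.5 h and 12462 in the 12 of HCT116 without heat shock. P-values were Benjamini-Hochberg adjusted over all genes of a comparison, 15 comparisons in all, and called under 0.05. Intervals of differences are at 95% and not adjusted. The planned count model was not used, as the table holds FPKM. The script was tested on simulated data.

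Members and lists were chosen with earlier results of these data known. All 9 members enter the count of each comparison, with values for those it turns on, and of each list at most the 3 largest called rises and falls. Depth was estimated from the step between low values, its scale from 1414 genes with a single transcript over 1500 bases. Length and GC content are those of the longest GENCODE transcript, for 87.7% of kept genes. Promoters are RefSeq's, GRCh38.p14, and names were matched by symbol. Alternatives were pseudocounts of 0.1 and 5, no filter or one at 5 FPKM, median of ratios or equal total scaling, no trend, removal of the GC and length trend, other sets of libraries and leaving out each library. Leaving out the third COLO205 ML-792 library from the shared 16 h fit, for comparisons without that group, was added after seeing the data. A few genes named by these rules are not reported here.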

Additional observations from a re-analysis of the deposited data

Results flagged for a closer look

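The ML-792 effect on FOSL1 in HCT116 differed between times, by -0.41 ± 0.06 on the log2 scale for 16 h minus 3.5 h (limma, adjusted p = 0.0015), with 49.5, 46.4 and 46.5 FPKM in ML-792 and 67.5, 63.4 and 68.2 FPKM in DMSO libraries at 16 h. All 3 ML-792 libraries were below all 3 DMSO libraries at 16 h. The libraries of 3.5 h were deeper than those of 16 h, and the part of that in the difference was not tested. Time and library series cannot be told apart in this comparison.

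For FOS, the ML-792 effect differed between MDAMB231 and COLO205 by 1.28 ± 0.43 (limma, adjusted p = 0.0429), higher in 3 of 3 ML-792 libraries of MDAMB231 and lower in 3 of 3 of COLO205. The third COLO205 ML-792 library stood apart, and without it the difference was 0.73 ± 0.08 (limma, adjusted p = 4.64e-06). The call was lost in 13 of the 22 alternatives (limma, adjusted p up to 0.106).

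JUNB differed between the same lines by 1.22 ± 0.24 (limma, adjusted p = 0.0019), and by 1.17 ± 0.26 without the third COLO205 ML-792 library (limma, adjusted p = 0.00495). It kept its call in all 22 alternatives, between 0.99 and 1.40. With the GC and length trend removed, JUNB changed by 0.54 ± 0.10 in MDAMB231 and -0.53 ± 0.10 in COLO205.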

How the results depend on the processing

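Of 2448 values of single members under the alternatives, 2349 kept their direction and side of the threshold, 35 lost a call, 63 gained one and 1 reversed. The reversed value was JUNB in COLO205 minus HCT116, DMSO, at 0.37 with the GC and length trend removed, where the number of members called was 7. FOSL2 in the 5 ML-792 comparisons, and all members in the 2 heat shock comparisons, kept their calls under every alternative run, except JUNB in DMSO with equal totals. No paired analysis was possible because libraries of different groups share no number in their labels. Counts of called members moved as follows. ML-792 in COLO205 gave 4 with the GC and length trend removed and with its own groups alone. ML-792 in MDAMB231 gave 1 with a pseudocount of 5, no filter or equal totals. ML-792 at 3.5 h without heat shock gave 2 when its own groups alone were fitted, and with heat shock 2 with equal totals. The difference of the ML-792 effect between heat shock and none gave 1 under both equal totals and median of ratios. Between times it gave 2 with the GC and length trend removed and 0 with all 30 libraries. For COLO205 minus HCT116 it gave 1 with a pseudocount of 5, and 2 with no trend, with the GC and length trend removed and with all 30 libraries. For MDAMB231 minus HCT116 it gave 1 with the GC and length trend removed and with its own groups alone, and for MDAMB231 minus COLO205 1 with equal totals and with its own groups alone. Leaving out 1 library at a time gave 4 to 7 members for ML-792 in COLO205, 1 to 2 for ML-792 in MDAMB231 and 1 to 3 for ML-792 with heat shock. It gave 0 to 1 for the difference between heat shock and none, 0 to 2 for COLO205 minus HCT116, 0 to 1 for MDAMB231 minus HCT116 and 1 to 7 for MDAMB231 minus COLO205, the 7 without the first COLO205 ML-792 library. Without the third, FOS and ATF3 were called in COLO205 minus HCT116. Over all genes, ML-792 with heat shock gave 2241 higher and 1842 lower calls, but 88 and 167 when its own groups alone were fitted, and without heat shock 124 and 23, but 464 and 264. The cause of these changes was not tested. Depth limits FOSB in MDAMB231, whose lowest value rested on about 22.5 fragments.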
